A study of Mus musculus with 8 samples.

Results

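The replication-dependent histone genes are the clustered genes that supply the histone proteins for newly made chromatin. They were taken as every gene whose mouse symbol in the GENCODE M21 annotation starts with Hist1h, Hist2h, Hist3h or Hist4h. The annotation lists 70 such genes, and 68 of them were among the 25006 gene identifiers counted in each library. The other two, Hist1h2aj and Hist1h2al, are annotated as pseudogenes and were not analysed here. The 68 genes comprise 6 linker histone H1 genes, 18 H2A, 19 H2B, 12 H3 and 13 H4 genes, and 67 of them are annotated as protein-coding. RNA was sequenced from tumors of 4T1, a mouse mammary carcinoma line that was derived from a Balb/c mouse. Cells with or without CD95, the death receptor encoded by Fas, had been injected into the fat pad of NSG mice, which lack T, B and NK cells, or of Balb/c mice, which have them, and tumors were taken within 20 days. The 8 libraries form 4 groups of 2. NSG wild type and Balb/c wild type each hold the parental line and a line stably expressing vCas9, and NSG knockout and Balb/c knockout each hold the CRISPR/Cas9 knockout clones 54 and 69. No line appears more than once in a group, so replicates differ by line. The knockouts are single clones, and the labels do not say whether a library was made from 1 tumor or several. P-values measure only the spread between these libraries.

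In dividing cells, histone mRNA made from these genes accumulates during S phase and is degraded when DNA replication ends. Most of these mRNAs carry no poly(A) tail. They end just after a conserved stem-loop that is bound by SLBP, and are cleaved there with the help of the U7 small nuclear ribonucleoprotein. Core histones H2A, H2B, H3 and H4 form the nucleosome, and H1 binds the linker DNA between nucleosomes. A few members are used in germ cells: Hist1h1t, Hist1h2aa and Hist1h2ba encode testis forms of H1, H2A and H2B.

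The stem-loop is shown because it is what sets these mRNAs apart from other mRNAs, and it was not used to choose the members. It was found in an annotated transcript of 46 of the 68 members and of 25 of 24874 other measured genes, or 0.101%. There were 8 distinct forms among the members, and the commonest was present in 26 of them. Sequences are from the GENCODE M21 transcripts, written with T for U, and capitals mark the 16-base stem-loop.
Hist1h1c: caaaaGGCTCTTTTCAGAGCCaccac
Hist1h4d: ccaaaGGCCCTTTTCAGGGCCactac
Hist1h4j: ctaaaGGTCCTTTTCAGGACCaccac
Hist1h1t: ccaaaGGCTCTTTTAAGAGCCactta
Hist1h1c carries the commonest form. Of the 46 members with the stem-loop, 23 had fewer than 100 annotated bases after it and 23 had at least 100, with a range of 3 to 4884 bases. Many members thus have an annotated transcript that runs past the stem-loop, and the counts cannot tell the processed mRNA from such longer RNA. Of the 22 members in which no stem-loop was found, 14 have annotated lengths under 450 bases, so that a stem-loop after the annotated end would not be seen.

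Promoters are shown for members that stood out in the comparisons that follow. Hist1h2ba and Hist1h2bm were lower in Balb/c in both host comparisons, Hist1h4j was lower in Balb/c than in NSG among the knockout tumors, and Hist1h1c was the member with the highest mean CPM, a gene's count scaled to the library's TMM-adjusted total so that libraries can be compared. The RefSeq promoter table (GRCm38.p6, 250 bases before to 50 after the start) matched 62 members with 64 promoters. Capitals mark the octamer ATTTGCAT and the CCAAT box, letters CCAAT, each searched on both strands and allowed to overlap.
Hist1h2ba (chr13:23934107-23934406, minus strand): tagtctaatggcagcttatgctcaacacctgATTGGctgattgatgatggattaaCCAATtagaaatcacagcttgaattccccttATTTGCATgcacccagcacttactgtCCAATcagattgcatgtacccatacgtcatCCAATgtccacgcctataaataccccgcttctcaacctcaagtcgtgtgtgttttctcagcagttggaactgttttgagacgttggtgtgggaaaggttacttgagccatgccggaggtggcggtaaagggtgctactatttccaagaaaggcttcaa
Hist1h2bm (chr13:21721794-21722093, plus strand): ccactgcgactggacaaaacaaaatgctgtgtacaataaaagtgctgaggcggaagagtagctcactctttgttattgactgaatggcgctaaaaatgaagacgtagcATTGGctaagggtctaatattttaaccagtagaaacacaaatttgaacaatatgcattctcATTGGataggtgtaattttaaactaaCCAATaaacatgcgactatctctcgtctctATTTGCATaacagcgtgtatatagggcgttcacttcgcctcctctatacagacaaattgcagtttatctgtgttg
Hist1h4j (chr13:21734784-21735083, plus strand): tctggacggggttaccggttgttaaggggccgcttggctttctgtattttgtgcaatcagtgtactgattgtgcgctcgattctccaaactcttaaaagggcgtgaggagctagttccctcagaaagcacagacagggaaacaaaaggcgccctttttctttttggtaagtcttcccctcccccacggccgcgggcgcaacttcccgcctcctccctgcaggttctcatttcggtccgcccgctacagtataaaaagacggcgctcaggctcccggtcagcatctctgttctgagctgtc
Hist1h1c (chr13:23738557-23738856, plus strand): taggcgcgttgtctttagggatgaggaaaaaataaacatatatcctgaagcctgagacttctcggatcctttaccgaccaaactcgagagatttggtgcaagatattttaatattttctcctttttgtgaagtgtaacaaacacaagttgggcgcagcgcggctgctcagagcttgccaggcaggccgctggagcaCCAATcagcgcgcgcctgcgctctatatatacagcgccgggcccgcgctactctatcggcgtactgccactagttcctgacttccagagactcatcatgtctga
The octamer was in 7 of 17 H2B promoters and 7 of 19 H2A promoters and in none of the 6 H1, 10 H3 and 12 H4 promoters, beside 1.74% of 32851 promoters of all genes. Many H2A and H2B genes lie in divergent pairs whose windows overlap, such as Hist1h2aa and Hist1h2ba, so 1 octamer can count for both. The CCAAT box was in 55 of the 64 promoters, but in 3 of 12 H4 promoters, beside 37.4% of all promoters. TATAAA, searched on both strands, was in 35 of 64 beside 13.6% of all. Hist1h4j holds neither the octamer nor a CCAAT box in this window, and Hist1h2ba holds both. These are letter matches and not measured binding.

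Totals ran from 8680070 to 19655945 counts per library. The members took between 0.0775% and 0.300% of them. Fas, the targeted gene, was read in every library. It was at 33.9 and 22.6 CPM in NSG wild type and 29.5 and 12.9 CPM in NSG knockout, which overlap, while in Balb/c the wild-type tumors read 51.6 and 46.9 CPM and the knockout tumors 27.1 and 33.7 CPM, which do not. A CRISPR change can leave the mRNA in place, so this level does not check the genotype labels in NSG. The 7 epithelial tumor cell markers summed to between 753 and 4284 CPM, and each library held them. Of the 68 members, 59 passed the filter on low counts and were tested among 15310 genes. The 9 that did not pass were Hist1h1t, Hist1h2aa, Hist2h2aa1, Hist1h2ao, Hist1h2ap, Hist3h2bb-ps, Hist1h2br, Hist1h2bq and Hist1h4m, each at 0.70 CPM or less in every library. Hist1h2ap had 0 counts in all 8. Near-identical copies share reads: 30 of 68 members had less than 50% of their 50-base windows to themselves, with a median share of 98.9% for H1, 60.5% for H4, 56.2% for H2B, 42.8% for H3 and 27.0% for H2A. Levels of single H2A, H2B and H3 genes are therefore less certain than those of H1.

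Per kilobase of annotated transcript, the highest mean levels over the 8 libraries were those of Hist2h2bb, an H2B gene, at 242 CPM per kb, Hist1h1c, the gene of linker histone H1.2, at 143, and Hist1h4d, an H4 gene, at 90.3. The order was not the same in every group: Hist2h2bb was at 346 CPM per kb in NSG wild type, above Hist1h1c at 133, while in Balb/c wild type Hist1h1c was at 144 and Hist2h2bb at 135. Median levels by class were 42.3 CPM per kb for H1, 39.2 for H4, 18.8 for H3, 11.1 for H2B and 4.87 for H2A. The class with the lowest median, H2A, was also the one whose members shared most of their sequence with other copies, while over all 68 members the share of own windows and the level per kb had a Spearman rho of 0.16, given as a description. In CPM, not scaled by length, the sum was concentrated: 5 genes held 41.9% of it and 20 genes held 75.2%.

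The summed level of the 68 members was 1535 CPM in the parental and 1702 in the vCas9 tumor of NSG wild type, and 1024 and 841 in the same lines in Balb/c. In NSG knockout it was 1326 for clone 54 and 2591 for clone 69. In Balb/c knockout it was 1417 for clone 54 and 824 for clone 69. The wild-type tumors of the hosts did not overlap, while the knockout tumors did, because the clone 54 library in Balb/c lay above the clone 54 library in NSG. Means were 1618 ± 119 in NSG wild type, 933 ± 130 in Balb/c wild type, 1958 ± 895 in NSG knockout and 1120 ± 419 in Balb/c knockout (SD, n = 2 each). The Balb/c mean was 0.576 of the NSG mean in wild type and 0.572 in knockout. In bulk tumor RNA, fewer cells of a type and less RNA per cell cannot be told apart.

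**Figure D1:**
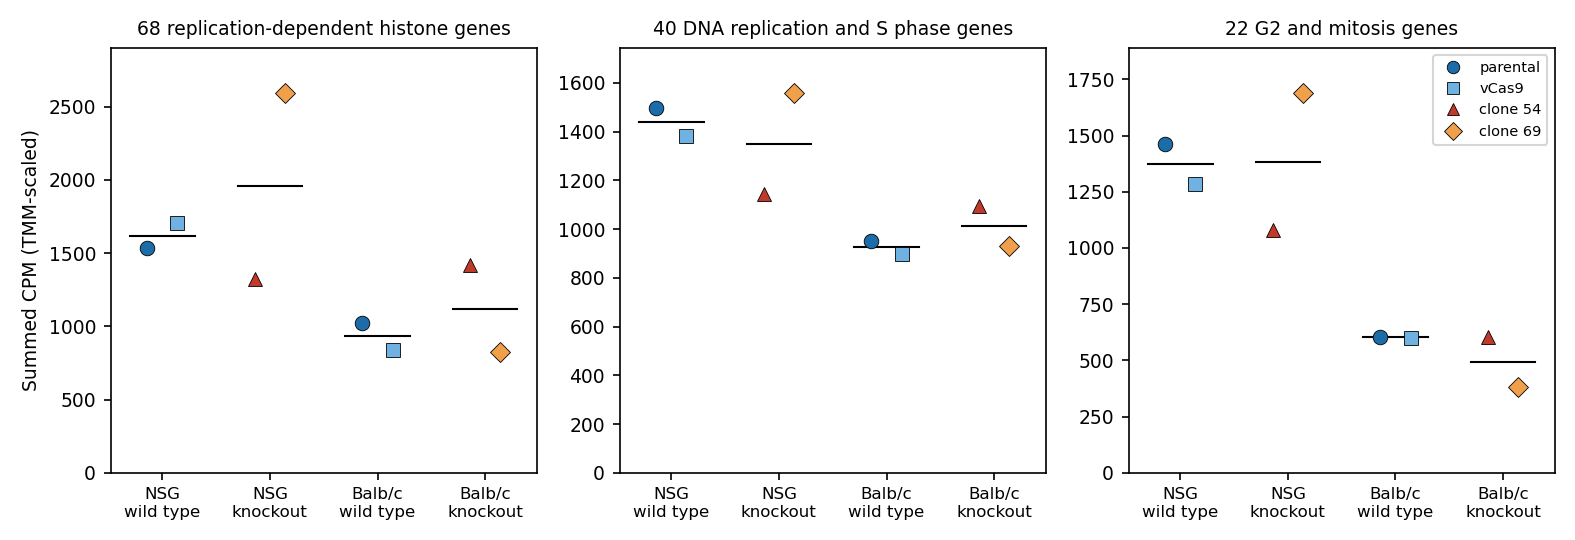
Summed CPM of the 68 histone genes (left), 40 DNA replication and S phase genes (middle) and 22 G2 and mitosis genes (right) in each of the 8 libraries, with TMM-scaled totals. Symbols are the 4T1 lines and bars are group means of 2 libraries. The histone sum was highest in NSG knockout clone 69, at 2591 CPM, and lowest in Balb/c knockout clone 69, at 824 CPM.

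The NSG clone 69 library stood apart from the rest. Of the 59 tested members, 54 were highest in the NSG clone 69 tumor. The lowest library was Balb/c clone 69 for 28 members and Balb/c vCas9 for 20. The map of single genes shows this as columns that move together across classes. The 5 members that were highest elsewhere were Hist3h2a, Hist3h2ba, Hist1h2bf, Hist2h3c1 and Hist2h3c2, all of them in a Balb/c knockout tumor, and are named after their values were seen.

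**Figure D2:**
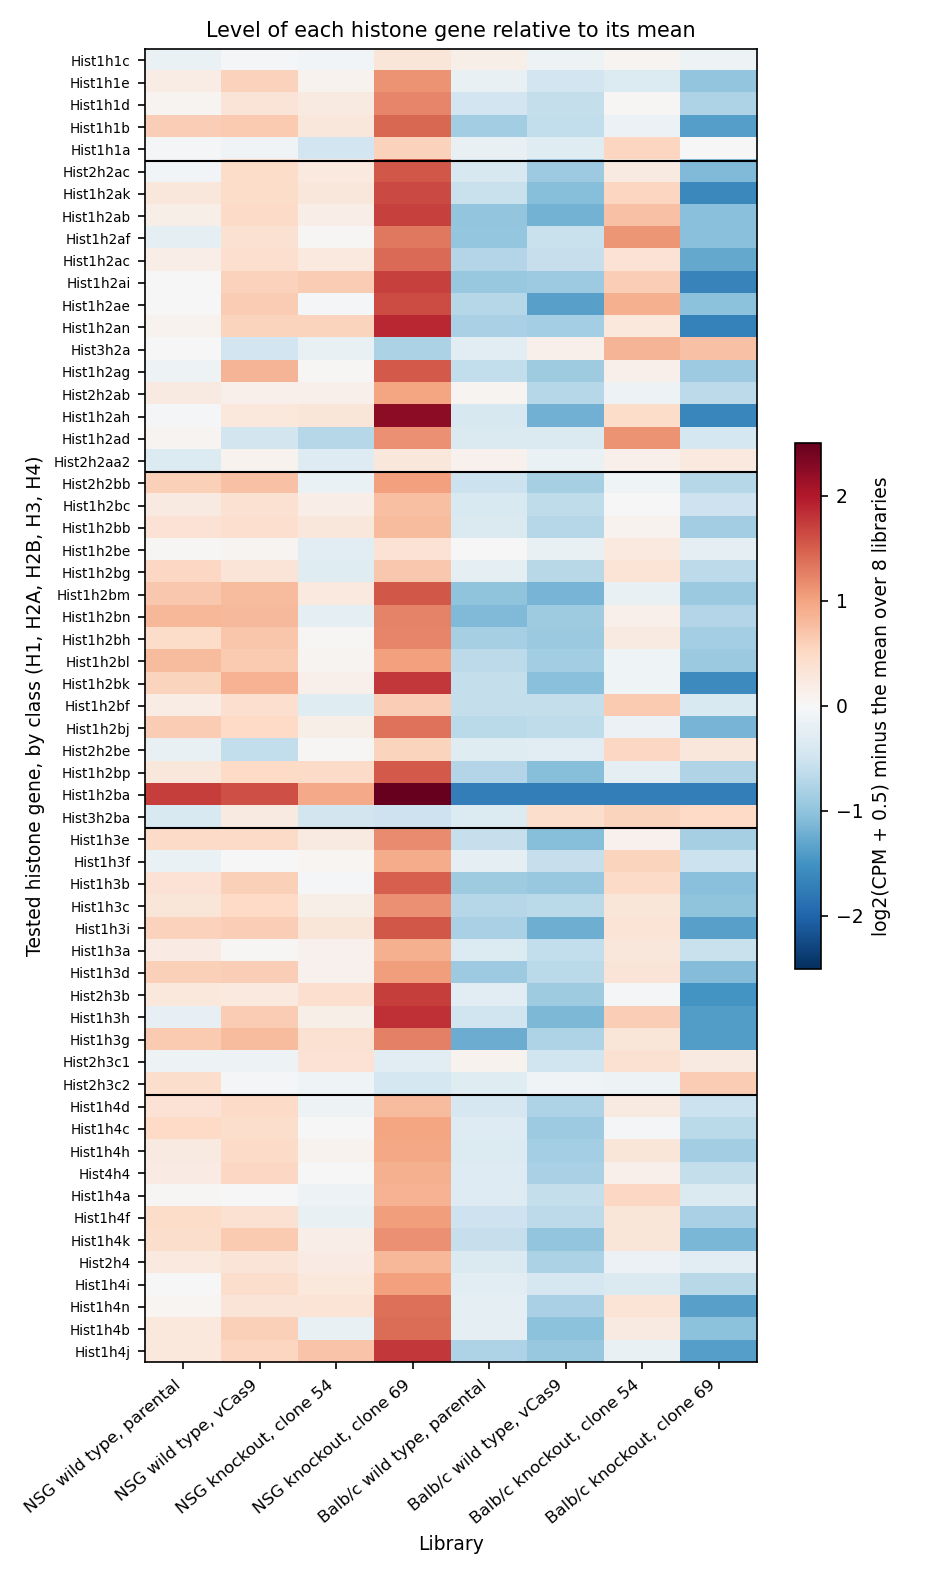
Level of each of the 59 tested histone genes (rows, by class and falling mean level) in each library (columns), as log2(CPM + 0.5) minus the gene's mean over the 8 libraries. Red is above and blue below that mean. The NSG clone 69 column was the highest for 54 of 59 genes, and Hist1h2ba was above its mean in the 4 NSG libraries and below it in the 4 Balb/c libraries.

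The comparison of Balb/c with NSG hosts in wild-type tumors asks how histone expression differed when the same CD95-expressing lines grew in these hosts. The hosts are different mouse strains, so strain and the presence of lymphocytes cannot be told apart. Histone mRNA was lower in the Balb/c tumors for most members, and 10 of the 59 tested members passed the test, all of them lower. The H2B genes carried 8 of these calls, among them Hist1h2ba, which passed the filter on its NSG libraries alone. The share of members called lower, 16.9%, was close to that of all genes, of which 16.2% were called lower, 15.3% higher and 31.5% in either direction, so the number of calls is not a result about the members. The size of the shift differed more: the median log2 difference was -1.03 over the 59 members and -0.08 over all genes tested, and 54 of 59 members had a negative value. Both Balb/c libraries lay below both NSG libraries for 52 members, with 0 above, beside 41% of all genes below and 35.4% above.

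Among the linker histones edgeR called none. DESeq2, total-count scaling, no filter on low counts and the fit of only the compared libraries called Hist1h1b. The last of these called also Hist1h1d and Hist1h1e. These fits called 23.4% to 46.7% of all genes. Hist1h1c read 198 and 215 CPM in the NSG wild-type tumors and 247 and 203 CPM in the Balb/c ones. These overlap, and the log2 difference was 0.12 ± 0.20 (SE, as for every log2 difference given with an error). Hist1h1b, the gene of H1.5, read 57.0 and 58.6 CPM in NSG and 20.0 and 24.0 CPM in Balb/c. Its groups did not overlap, but with a log2 difference of -1.39 ± 0.46 and an adjusted p of 0.0518 it just missed the threshold. Hist1h1e, which encodes H1.4, had 118 and 154 CPM in NSG and 90.6 and 73.9 CPM in Balb/c, and did not pass at -0.72 ± 0.36. It overlaps Hist1h2be on the same strand, so its counts are uncertain.

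In the H2A class 0 of 14 tested members passed edgeR's test, and 0 had an unadjusted p under 0.05. DESeq2 called none of them either. The fit of only the compared libraries, which called 46.7% of all genes, called Hist1h2ab, Hist1h2ac, Hist1h2ae, Hist1h2ai, Hist1h2ak and Hist1h2an. The class median was nevertheless -1.12, and 11 of 14 were lower in both Balb/c tumors than in both NSG tumors, beside 41% of all genes. Hist2h2ac, the H2A gene with the highest mean CPM, read 17.5 and 25.4 CPM in NSG and 13.8 and 9.56 CPM in Balb/c. Hist1h2ab, another H2A gene, read 12.3 and 15.6 CPM in NSG against 5.35 and 4.57 CPM in Balb/c. Both sets are separate, and neither passed, at -0.88 ± 0.54 and -1.49 ± 0.66.

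Of the 16 tested H2B genes 8 fell, beside 16.2% of all genes, and the class median was -1.37. The 8 include Hist1h2ba, which passed the filter on its NSG libraries alone, so that it had to differ if it was tested. Copies share reads, so the 8 calls are not independent of each other. With RLE size factors Hist1h2bc, Hist1h2bh and Hist1h2bp were not called. DESeq2, which called 32.3% of all genes, did not call Hist1h2bc (DESeq2 adjusted p 0.0530) and called also Hist1h2bk. Hist1h2bm read 24.5 and 26.3 CPM in NSG wild type and 7.30 and 6.51 CPM in Balb/c wild type. The groups lay far apart, with a log2 difference of -1.88 ± 0.44 and an adjusted p of 0.0179. Hist1h2bn fell alike, from 26.5 and 26.1 CPM to 6.54 and 7.69 CPM (-1.88 ± 0.49, adjusted p 0.0249), but only 13.6% of its windows are its own and its reads may belong in part to Hist1h2bk and other copies. Hist2h2bb, all of whose windows are absent from genes at other loci, fell from 125 and 138 CPM to 56.6 and 46.2 CPM (-1.36 ± 0.38, adjusted p 0.0298). In the annotation it overlaps Gm20628 and Gm42743, which were not analysed here. Hist1h2bc fell from 41.6 and 46.0 CPM to 26.8 and 22.7 CPM (-0.82 ± 0.25, adjusted p 0.0422). The others that passed were Hist1h2ba, Hist1h2bh, Hist1h2bl and Hist1h2bp. Hist1h2bb, with 40.2 and 42.2 CPM in NSG and 24.2 and 18.8 CPM in Balb/c, did not pass at -0.94 ± 0.33.

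In the H3 class 1 of 12 passed edgeR's test, beside 16.2% of all genes called lower. DESeq2, which called 32.3% of all genes, called also Hist1h3d, Hist1h3g and Hist1h3i. Hist1h3e fell from 41.8 and 41.4 CPM to 19.7 and 14.1 CPM (-1.30 ± 0.39, adjusted p 0.0395), and shares 63.2% of its windows with Hist1h3f. Hist1h3f itself read 19.7 and 22.1 CPM in NSG against 18.9 and 14.6 CPM in Balb/c and did not pass, at -0.32 ± 0.40. In the H4 class edgeR called 1 of 12, Hist2h4, and DESeq2 called also Hist1h4c, Hist1h4d, Hist1h4j and Hist1h4k, beside the same shares of all genes. With RLE size factors neither Hist1h3e nor Hist2h4 was called. All 12 tested H4 genes were lower in both Balb/c tumors than in both NSG tumors, beside 41% of all genes. Hist1h4d, for example, read 124 and 134 CPM in NSG and 71.6 and 56.3 CPM in Balb/c. The H4 genes with the highest mean CPM came near the threshold in edgeR without passing it, at -1.01 ± 0.34 for Hist1h4d and -1.07 ± 0.36 for Hist1h4c.

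These calls rested on few libraries. With the line entered as a replicate block, possible because the hosts received the same lines, 1 member passed and 13.5% of all genes did. The 1 member was Hist1h2ba, which was at 0 in every Balb/c library and passed the filter on its NSG libraries alone. Without the NSG parental library 0 members passed, beside 5.45% of all genes. Without the NSG vCas9, the Balb/c parental or the Balb/c vCas9 library 1 member did, beside 8%, 8.16% and 9.44% of all genes. In these fits a lone library is assumed to vary like the other groups. Without the Balb/c clone 54 or clone 69 library 18 and 27 members passed, beside 39.2% and 40.5% of all genes.

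In knockout tumors the same host comparison gave 9 lower and 1 higher member of 59, or 16.9% called, beside 31.1% of all genes (15.4% lower, 15.7% higher). The share called lies below that of all genes. At an unadjusted p under 0.05 there were 23 members, beside 43.4% of all genes. The median was -0.98 over the members and 0.02 over all genes, and 51 of 59 values were negative. Unlike in wild type, most members overlapped between the hosts: 22 had both Balb/c clones below both NSG clones, 2 had them above and 35 overlapped, beside 31.9% of all genes below and 32.4% above. No member passed edgeR's test of the difference between the host effects in knockout and in wild type. DESeq2 called 17 of 59 members, beside 32.4% of all genes. It called each of the 10 members and added Hist1h2an, Hist2h2ac, Hist1h2bj, Hist1h2bk, Hist1h2bl, Hist1h3e and Hist2h4. Of the 10 members lower in wild type and the 9 lower in knockout, 3 were shared, which is 30% of the former and 33.3% of the latter. They were Hist1h2ba, Hist1h2bm and Hist1h2bp, all H2B genes. Hist1h2ba passed the filter on its NSG libraries alone. The matching share of all genes is not given here, so the overlap is not a result about the members.

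**Figure D3:**
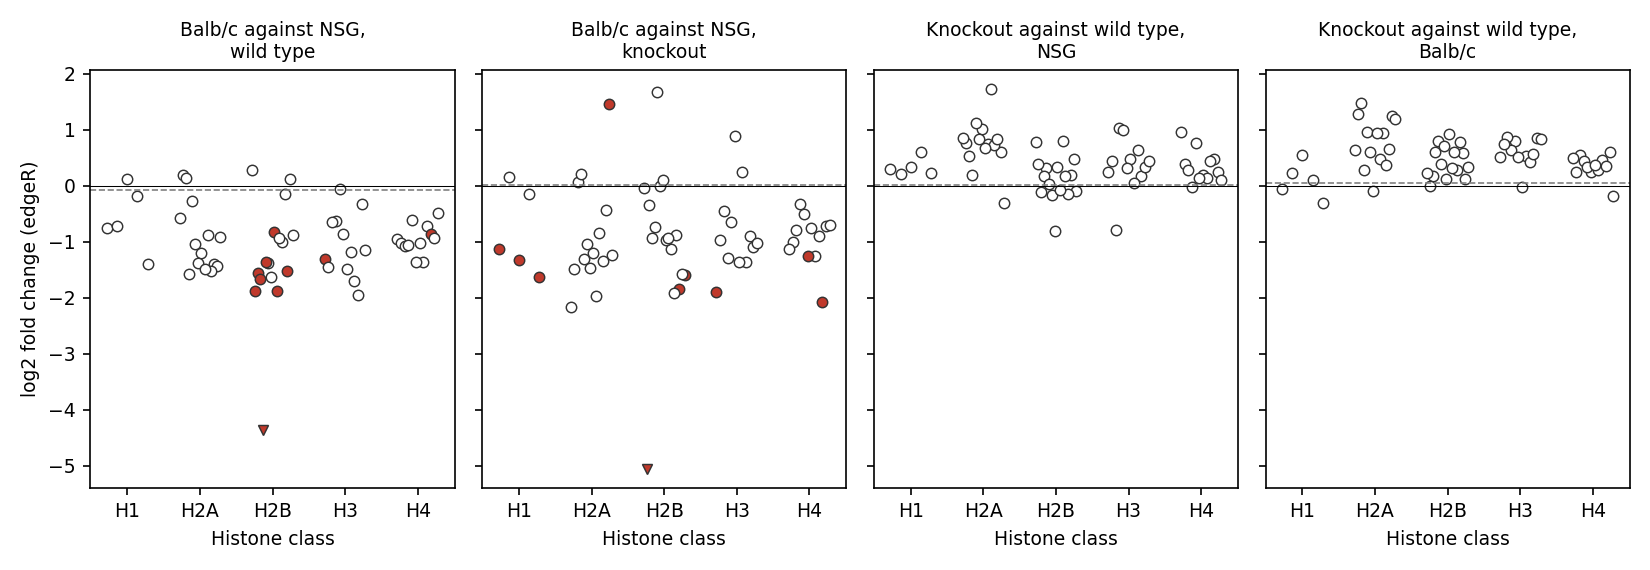
log2 fold change of each tested histone gene by class in the host comparisons (Balb/c against NSG) and the CD95 comparisons (knockout against wild type). Filled points passed an adjusted p of 0.05 in edgeR, triangles are bounds for Hist1h2ba, and dashed lines are the median of all genes tested. Host comparisons held 10 filled points each, and the knockout comparisons 0.

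Of the linker histones 3 of 5 were lower in Balb/c than in NSG knockout tumors, beside 15.4% of all genes. Hist1h1b read 45.0 CPM (clone 54) and 102 CPM (clone 69) in NSG and 33.3 and 14.0 CPM in Balb/c, at -1.63 ± 0.46 and an adjusted p of 0.0308. Hist1h1e fell from 109.9 and 225 CPM to 81.4 and 51.6 CPM (-1.33 ± 0.36, adjusted p 0.0270). Hist1h1d, the gene of H1.3, fell from 63.3 and 127 CPM to 55.7 and 31.7 CPM (-1.13 ± 0.36, adjusted p 0.0480). With GC and length offsets Hist1h1d was not called. Hist1h1b, Hist1h1e and Hist1h1d were lower in both Balb/c clones than in both NSG clones, beside 31.9% of all genes. In each of them the clone 69 libraries lay farther apart than the clone 54 libraries. Hist1h1c read 212 and 272 CPM in NSG and 231 and 204 CPM in Balb/c, with an overlap and a log2 difference of -0.15 ± 0.20.

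Among the core histones, Hist1h4j showed the lowest value past the threshold after Hist1h2ba. It read 15.2 CPM (clone 54) and 32.1 CPM (clone 69) in NSG and 7.93 and 3.21 CPM in Balb/c (-2.07 ± 0.48, adjusted p 0.0147). Hist1h4i was the other H4 gene that fell. Hist2h3b, an H3 gene, fell from 10.2 and 26.0 CPM to 7.25 and 2.33 CPM (-1.90 ± 0.59, adjusted p 0.0433), but 79.7% of its windows are also in Gm20634. With GC and length offsets Hist2h3b was not called, at -1.43 (edgeR adjusted p 0.0526). Hist1h2bm fell from 18.0 and 45.3 CPM to 13.3 and 7.73 CPM (-1.59 ± 0.43, adjusted p 0.0264). Of the high-level genes, Hist1h4d read 88.4 and 168 CPM in NSG and 113 and 66.5 CPM in Balb/c, an overlap with no call. Hist2h2bb read 74.0 and 169 CPM against 77.1 and 50.3 CPM and was not called either.

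The count of calls in knockout tumors depended on which clone was in the fit, and it also fell when a wild-type library was left out. With the line as a replicate block, 1 member, again Hist1h2ba, passed and 18.8% of all genes. Without the NSG clone 69 library 1 member passed, beside 15.6% of all genes, and the median was -0.33. Without Balb/c clone 69 2 passed, beside 29.6% of all genes. Without NSG clone 54 20 passed, beside 20.9% of all genes. Without Balb/c clone 54 32 passed, beside 29.3% of all genes, with a median of -1.67.

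Hist1h2ba, the testis H2B gene, gave the widest host difference. It lies on chromosome 13, at 23933773 to 23934156 on the minus strand of GRCm38, as a single-exon coding gene. Its annotated transcript of 384 bases holds no stem-loop, and what follows its end was not searched. Its counts were 72 (parental) and 55 (vCas9) in NSG wild type and 25 (clone 54) and 99 (clone 69) in NSG knockout, and 0 in each of the 4 Balb/c libraries. In CPM the NSG levels were 4.99, 4.56, 2.68 and 9.85. Set against a floor of 3 counts per library, the wild-type Balb/c level was at least 20.6-fold lower (edgeR adjusted p 0.00801). For the knockouts the bound was at least 33.2-fold lower (edgeR adjusted p 0.00417). The gene passed the filter on its NSG libraries alone, so that it had to differ if it was tested. Without the NSG parental library the wild-type adjusted p was 0.0525.

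The neighbour that shares its promoter region, Hist1h2aa, starts 306 bases away on the other strand and was not read with it. Its counts were 2 in the NSG parental tumor, 1 in Balb/c clone 54 and 0 in the remaining libraries. Hist1h1t, the testis H1 gene, had between 1 and 11 counts in a library, in both hosts. Of 10 germ cell markers 2 passed the filter on low counts, Sycp1 and Ddx4. Ddx4 was called higher in Balb/c knockout (edgeR adjusted p 0.0107), at 3.12 and 0.80 CPM beside 0 in both NSG knockout tumors. A call against a group at 0 may follow from the filter itself, so it is given as a description only. Dppa3 and Tnp1 were at 0 in all 8 libraries. The summed level of the 10 germ cell markers was 3.21 to 5.40 CPM in NSG and 5.76 to 12.3 CPM in Balb/c. Sycp1 and Ddx4 made up most of this sum in every library, and its relation to Hist1h2ba was not tested. Of the windows of Hist1h2ba 61.8% are its own, and it shares 38.2% with Hist1h2bj, which was read in all 8 libraries.

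Hist3h2a, an H2A gene on chromosome 11 outside the main clusters, was the member that rose. It read 2.35 and 1.39 CPM in NSG knockout and 5.40 and 4.89 CPM in Balb/c knockout, which do not overlap (1.46 ± 0.41, adjusted p 0.0312). In wild type it read 2.77 and 1.82 CPM in NSG against 2.21 and 3.05 CPM in Balb/c, with a difference of 0.19 ± 0.41. Its transcript overlaps Trim17 on the same strand, so its counts are uncertain, and the call was lost with the line as a block (adjusted p 0.0823). Its neighbour Hist3h2ba, an H2B gene, was higher in Balb/c in each of the 4 lines and passed in neither comparison, at 0.29 ± 0.61 in wild type and 1.68 ± 0.66 in knockout, with levels of 0.40 to 1.38 CPM. By position, the 47 tested genes of the chromosome 13 cluster had a median of -1.18 in wild type and -1.04 in knockout, and 46 and 45 of them were negative. The 9 tested genes of the chromosome 3 cluster had medians of -0.65 and -0.79, and 7 and 5 of them were negative. Hist4h4, the H4 gene on chromosome 6, had -0.93 and -0.71 with no call.

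**Figure D4:**
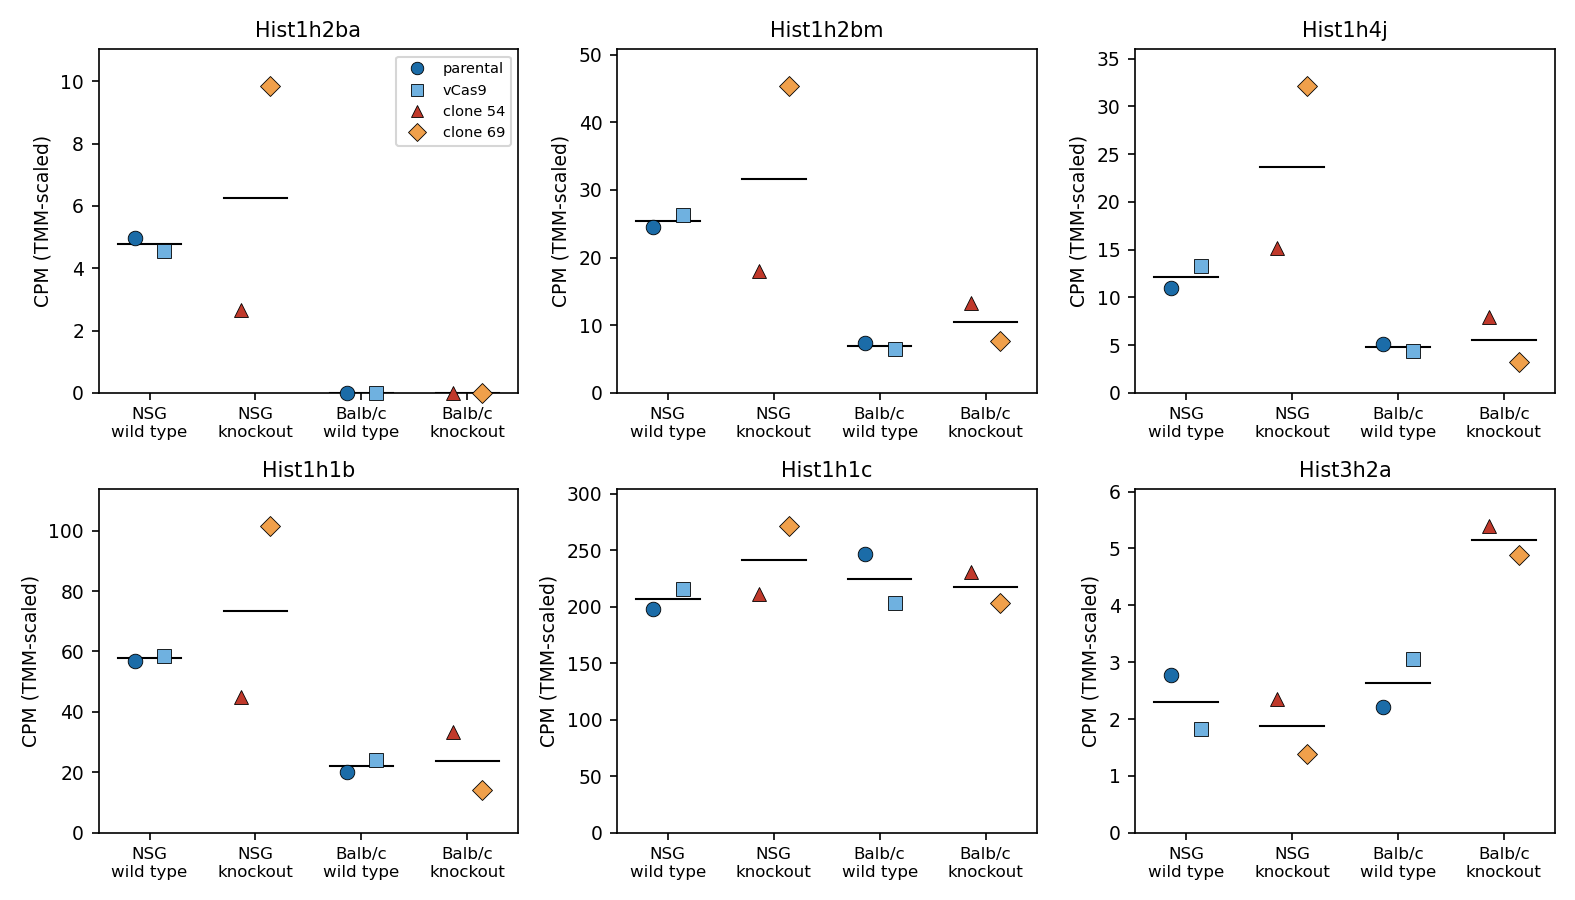
CPM of 6 histone genes in each library, with symbols for the 4T1 lines and bars for the means of 2 libraries. Hist1h2ba was at 0 in the 4 Balb/c tumors, Hist1h2bm, Hist1h4j and Hist1h1b were lower there, Hist1h1c kept 198 to 272 CPM throughout, and Hist3h2a was highest in Balb/c knockout. Hist1h1b was added to the panel after its values were seen.

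Within lines, the host difference was not of one size. Taking Balb/c minus NSG for each line, the median over the 59 tested members was -0.73 in the parental line and -1.25 in vCas9, with 55 members lower in each, beside 52.9% and 53.3% of all genes lower. It was -2.01 in clone 69, again with 55 lower, beside 49.5% of all genes. In clone 54 it was 0.12, with 23 lower, beside 49.8% of all genes. Of the 51 members lower in Balb/c in the other three lines, 29 (56.9%) were higher there in clone 54, beside 30.8% of all genes so chosen. In all 4 lines 22 members (37.3%) were lower, beside 24.3% of all genes, among them Hist1h2ba, Hist1h2bm, Hist1h4j, Hist1h1b, Hist1h1d and Hist1h1e. These are single libraries, without replicates. The values for the clones depend on the clone labels: the differences between clones 54 and 69 in NSG and in Balb/c correlated at -0.384 over all genes tested and -0.67 over the tested members (genes are not independent replicates). Whether the labels of the clones are exchanged in 1 host cannot be told from the labels.

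**Figure D5:**
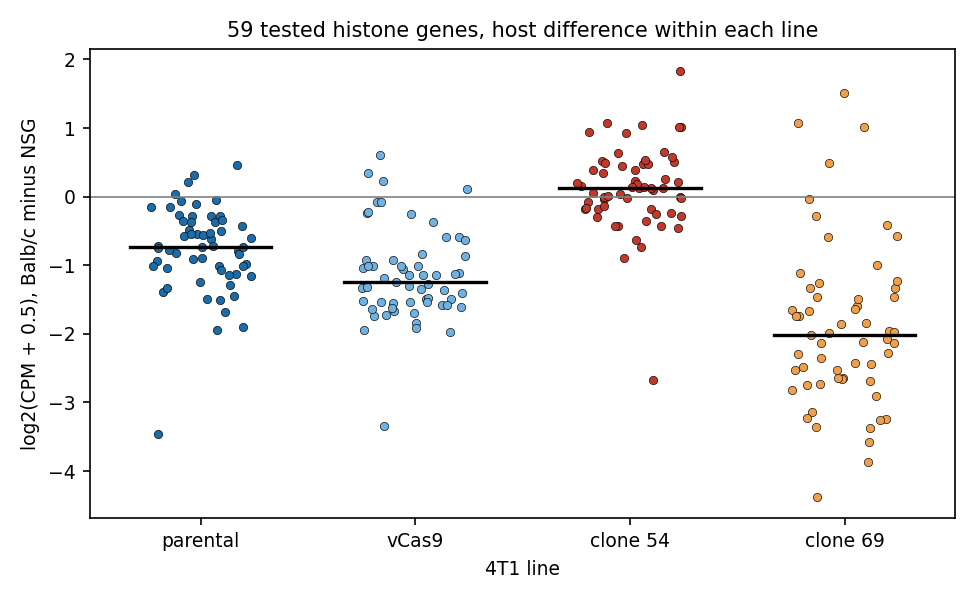
Difference between the Balb/c and the NSG tumor of the same line in log2(CPM + 0.5), for the 59 tested histone genes (points), with the median as a bar. Medians were -0.73 for the parental line, -1.25 for vCas9, 0.12 for clone 54 and -2.01 for clone 69.

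The clones also differed within each host, in opposite directions. In NSG, 55 of 59 members were higher in clone 69 than in clone 54, with a median log2 difference of 1.03, beside 49.8% of all genes and a median of 0. In Balb/c, 56 of 59 were higher in clone 54, with a median of -1.02 for clone 69 minus clone 54, beside 51.2% of all genes. The wild-type lines lay closer. In NSG 42 members were higher in vCas9 (median 0.15), beside 48.8% of all genes. In Balb/c 44 were higher in the parental line (median -0.26 for vCas9 minus parental), beside 47.3% of all genes. Among members with a mean of at least 1 CPM, those with the widest ratio between libraries of a group were low-level H2A genes whose sequence is mostly shared. Examples are Hist1h2ad at 0.75 and 4.08 CPM in NSG knockout and Hist1h2ag at 1.87 and 4.14 CPM in NSG wild type. Another is Hist1h2ah at 1.96 and 0.07 CPM in Balb/c knockout. The last value is 1 count.

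Other genes moved with these libraries. The 6 macrophage markers summed to 9615 CPM in Balb/c clone 54 and 3987 in Balb/c clone 69, beside 1526 to 2892 CPM in the other six libraries. The epithelial markers summed to 753 CPM in Balb/c clone 54 and 4284 in Balb/c clone 69, and to 3517 and 2344 CPM in the same clones in NSG. The neutrophil markers summed to 518 CPM in Balb/c clone 54 and to 2500 to 7391 CPM in the other Balb/c tumors. The 5 fibroblast markers summed to 12497 and 12366 CPM in NSG knockout and 5192 and 1656 CPM in Balb/c knockout. Between these groups 4 of the fibroblast markers were called lower, beside 15.4% of all genes. With the line as a replicate block 3 were, beside 18.8% of all genes called in either direction. Between the wild-type groups 0 of the 5 were called, beside 31.5% of all genes. Mir6236 took 5.79% of the counts in NSG clone 54 and 0.110% to 1.43% in the other libraries. T cell markers summed to 322 to 398 CPM in Balb/c and to 4.71 to 10.04 CPM in NSG. The part of these cells and of this RNA in the histone differences was not tested.

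The comparison of knockout with wild type asks what loss of CD95 in the tumor cells changed. In NSG 0 of 59 members passed edgeR's test and 0 had an unadjusted p under 0.05, and DESeq2 also gave 0 and 0, beside 2.22% of all genes called. With edgeR 0.0131% of all genes passed and 14% had an unadjusted p under 0.05. The median of the members was 0.34 with 50 positive values, but it was -0.28 without the clone 69 library. Clone 69 lay above both wild-type tumors for 55 of 59 members and below both for 4, beside 42.5% and 37.5% of all genes. Clone 54 lay above for 8 and below for 35, beside 39% and 40.9% of all genes. Both clones lay above for 7 members and below for 2, beside 26.7% of all genes above and 25.8% below.

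In Balb/c 0 members passed edgeR's test as well, 1 had an unadjusted p under 0.05, and DESeq2 called 0. Of all genes, DESeq2 called 14.4%. With edgeR 0.176% passed (0.0457% higher, 0.131% lower) and 30.9% had an unadjusted p under 0.05. The 1 member was Hist3h2a, at 0.96 ± 0.39 with an adjusted p of 0.145. The median of the members was 0.52 with 53 of 59 positive, and it was -0.27 without the clone 54 library. Without the clone 69 library 3 H2A members were called higher, namely Hist1h2ab, Hist1h2af and Hist1h2ai, beside 24.8% of all genes, so the count is not a result about the members. Clone 54 lay above both wild-type tumors for 53 members and below for 0, beside 45.2% and 41.8% of all genes. Clone 69 lay above for 11 and below for 30, beside 43.6% and 38.1% of all genes. With both clones, 10 members lay above both wild-type tumors and 0 below, beside 32.9% of all genes above and 29.3% below. The test of whether the knockout effect differed between hosts called 0 members and 0 genes with edgeR, with 0 members at an unadjusted p under 0.05 beside 22.5% of all genes (12.4% higher and 10.1% lower in Balb/c than in NSG), and DESeq2 called 0 members and 974 genes. A p that misses the threshold does not show that the values were equal.

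Genes that act on histone mRNA were taken as a list. Slbp, whose protein binds the stem-loop, read 53.6 to 57.3 CPM in the 4 NSG tumors and 62.2 to 67.8 CPM in the 4 Balb/c tumors, at 0.19 ± 0.14 in wild type and 0.28 ± 0.14 in knockout with no call. Npat, the activator of histone gene transcription, read 36.1 to 50.1 CPM across the libraries and was not called. Of 18 tested genes for histone mRNA transcription, processing and decay, 1 rose and 0 fell in wild type and 1 rose and 1 fell in knockout, beside 31.5% and 31.1% of all genes called. The one that rose in both was Mif4gd, an SLBP-interacting factor for histone mRNA translation, with 14.4 and 13.8 CPM in NSG wild type and 35.5 and 28.9 CPM in Balb/c wild type (1.19 ± 0.20, adjusted p 0.00611). Cstf2, a cleavage factor subunit, fell in knockout (-0.64 ± 0.16, adjusted p 0.0188). With the line as a replicate block Mif4gd was called in wild type (adjusted p 0.0326) and no gene of this list in knockout.

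Of 21 histone chaperone genes, 2 rose and 6 fell in wild type, and 3 rose and 4 fell in knockout. These shares, 38.1% and 33.3%, are near the 31.5% and 31.1% of all genes called and are not a result about the list. Chaf1a, the large subunit of the assembly factor CAF-1 that deposits H3 and H4 behind the replication fork, fell in both. It read 21.3 and 17.8 CPM in NSG wild type and 7.13 and 7.90 CPM in Balb/c wild type (-1.38 ± 0.25, adjusted p 0.00799), and 17.9 and 25.5 against 8.31 and 6.78 CPM in knockout (-1.52 ± 0.25, adjusted p 0.00389). Chaf1a was also called with the line as a replicate block (adjusted p 0.0436 and 0.0282), where 1 chaperone gene rose and 2 fell in wild type and 2 fell in knockout. Ubn1 and Daxx, which act in replication-independent deposition of H3.3, rose in both, but with the block Ubn1 was called in wild type (adjusted p 0.0416) and not in knockout (0.0551), and Daxx in neither (0.0511 and 0.0697). Of 10 tested replication-independent histone genes, 2 fell in wild type and 1 in knockout. H1f0, the linker histone H1.0 gene, fell in both, from 219 and 193 CPM to 62.9 and 66.9 CPM in wild type (-1.67 ± 0.28, adjusted p 0.00661), and was the 1 gene of this list called in each comparison with the line as a block. H2afx, which also carries a stem-loop, read 32.9 and 30.7 CPM against 20.1 and 17.5 CPM in wild type and 29.9 and 77.1 CPM against 33.2 and 12.4 CPM in knockout, and was not called.

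Lists of 40 DNA replication and S phase genes and 22 G2 and mitosis genes were compared between the same hosts, where 31.5% of all genes were called in wild type and 31.1% in knockout. In wild type 18 of the 40 fell, with a median of -0.73, and 21 of the 22 fell, with a median of -1.50. In knockout 14 of 40 fell and 1 rose (median -0.54), and 20 of 22 fell (median -1.50). With the line as a replicate block, 6 of 40 and 8 of 22 fell in wild type, and 5 of 40 fell, 1 rose and 13 of 22 fell in knockout, beside 13.5% and 18.8% of all genes called in that fit. Summed S phase levels in NSG were 1145 CPM in clone 54 and 1558 in clone 69, and in Balb/c 1094 and 931 CPM. Within clone 54 the G2 and mitosis genes were lower in Balb/c in 22 of 22, with a median of -0.84. The S phase genes were lower there in 27 of 40, with a median of -0.20, while the histone median was 0.12. Of all genes 49.8% were lower in that line. These lists hold genes of dividing cells of any type, so that they do not tell tumor cells from host cells.

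The members were also divided by features that do not come from their levels. Members with at least 50% own windows had medians of -0.88 in wild type and -0.84 in knockout. Of these, 7 and 8 of 35 were called lower, and 1 was called higher in knockout. Members under 50% had medians of -1.37 and -1.18, with 3 and 1 of 24 called lower. Of all genes, 16.2% were called lower in wild type and 15.4% in knockout. Members with fewer than 100 annotated bases after the stem-loop had medians of -1.06 and -1.04, and those with 100 or more had -0.81 and -0.75. Of the H2B genes with a promoter in the table, 3 of 7 with the octamer and 4 of 7 without it fell in wild type, beside 16.2% of all genes. In knockout 2 of 7 with it and 1 of 7 without it fell, beside 15.4% of all genes. Those with the octamer include Hist1h2ba, which passed the filter on its NSG libraries alone. The median of each of these length and sequence groups was negative in both host comparisons. Of 10 tested RNAs that carry no poly(A) tail and are not histone mRNAs, 2 fell in wild type with a median of -0.36, and 3 rose and 1 fell in knockout with a median of 0.48, beside 31.5% and 31.1% of all genes called. With the line as a replicate block 1 fell in wild type, and 1 rose and 1 fell in knockout. How the libraries were selected for poly(A) is not given in the sources used here, and its part in the histone levels was not tested.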

How the data were processed

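The authors deposited raw counts per Ensembl gene for each library, 1 table per library and with no normalization visible. Per the submitters' processing notes the tools were cutadapt 1.13, STAR, HTSeq 0.6.1p1 and DESeq2, with builds mm10 and hg19 named. The strand setting, annotation, poly(A) selection, sequencing batches and dates are not given in the sources used here, and reads that fit several gene copies may have been dropped or split. Of the 25006 identifiers, 24942 were in GENCODE M21 (GRCm38), which may not be the authors' annotation.

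The tests used edgeR 4.0.16 under R 4.3.3, on the counts as deposited (TMM, filterByExpr, estimateDisp, glmQLFit, glmQLFTest). All 8 libraries entered 1 model with 4 group means, which left 4 residual degrees of freedom, and the common biological coefficient of variation was 0.244. Adjusted p-values are Benjamini-Hochberg values over the 15310 tested genes, called under 0.05, and standard errors follow from the log2 fold change and its F statistic. CPM uses TMM-scaled totals of the tested genes. At 3 counts a library shows 0.159 to 0.321 CPM; such floors cover counting error only. Alternatives were DESeq2 1.42.0, other scalings, no filter, GC and length offsets, only the compared libraries, the line as a block, and each library left out. The fits were tested on simulated data. Those data held no line effects and changed genes only between the wild-type groups, unlike the libraries here, so they do not vouch for the calls.

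Lines grown in both hosts pair the samples by the labels. The deviations of same-line samples correlated at 0.081 for the wild-type lines and -0.384 for the clones.

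The members, gene lists and tests were chosen with earlier results of these data known. Named members are, per class, the 3 with the highest mean CPM, per comparison up to 3 a direction with the largest change past the threshold, 6 genes chosen by name (Hist1h1t, Hist1h2aa, Hist1h2ba, Hist3h2a, Hist3h2ba, Hist4h4), and the widest ratio between libraries of a group. That ratio was taken among members with a mean of at least 1 CPM. Other members, such as Hist1h1b, were named after their values were seen. The share of own windows is the share of a member's 50-base windows found in no gene at another locus.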

Additional observations from a re-analysis of the deposited data

How the results depend on the processing

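The median of the members was negative in both host comparisons under every alternative run. No alternative left clone 69 out of both hosts, so these runs do not show a negative knockout median without that clone. Within single clones, the median for Balb/c minus NSG was 0.12 in clone 54 and -2.01 in clone 69, from single libraries. In place of 10 members called in each host comparison, RLE size factors gave 5 in wild type (30.2% of all genes called). Total-count scaling gave 16 and 17 (34.1% and 30.7% of all genes), DESeq2 18 and 17 (32.3% and 32.4%), and no filter on low counts 21 and 21 of 67 (23.4% and 23.8%). A fit of only the compared libraries gave 37 and 1 (46.7% and 16.8%), and GC and length offsets 16 in knockout (31.7%). Of the 10 members called in knockout, these offsets lost Hist1h1d and Hist2h3b. The line as a replicate block gave 1 and 1, and 1 and 2 with GC and length offsets, with all-gene calls of 2073 and 2878 in place of 4825 and 4757. The 1 member called with the block alone was Hist1h2ba, which passed the filter on its NSG libraries alone. The interaction between host and genotype called 0 members with and without it. Because the differences between the clones correlated at -0.384 between hosts, a block that crosses the clones was added after seeing the data. It gave 39 in knockout, beside 35.5% of all genes. Leaving out each library in turn gave 0 to 27 in wild type and 1 to 32 in knockout, 0 to 3 for knockout against wild type in Balb/c, medians of -1.67 to -0.33 for the knockout host comparison, -0.28 to 0.80 and -0.27 to 0.89 for knockout against wild type in NSG and Balb/c, and -0.68 to 0.78 for the difference between hosts. Fewer libraries leave fewer degrees of freedom; otherwise the cause was not tested.

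Over all genes, knockout against wild type called 2 genes in NSG, 27 in Balb/c and 0 for the difference between hosts. DESeq2 called 340, 2208 and 974, and no filter gave 133, 1774 and 674. RLE factors gave 94 in Balb/c. GC and length offsets gave 0, 0 and 0, and a fit of only the compared libraries gave 1 in NSG and 0 in Balb/c. Leaving out Balb/c clone 69 gave 3886 in Balb/c and 2370 for the difference. Total-count scaling moved the median of all genes to -0.24 in wild type and -0.17 in knockout host comparisons, against member medians of -1.18 and -1.20. Several H2A genes averaged fewer than 3 CPM, and whether depth limited their calls was not tested.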
